A study of Rattus norvegicus with 9 samples.

Results

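The heme and iron handling set consisted of 10 rat genes, Hmox1, Hmox2, Blvrb, Fth1, Ftl1, Tfrc, Slc11a2, Slc40a1, Aco1 and Ireb2. They were chosen by gene symbol, and all 10 had a row among the 28935 genes of the count table. Primary ventricular myocytes of newborn Sprague Dawley rats, aged 1 or 2 days, had been infected with an adenovirus carrying GFP (the control), Nfya or Nfe2l1. Every culture spent 48 h in medium with 3% fetal bovine serum before infection. Infection used 8 µL of virus in 1 mL of serum-free medium per well of a 12-well plate and lasted 48 h, so that all groups shared the serum withdrawal and the adenoviral vector. Each group had 3 stranded mRNA libraries, 9 in all, and the labels give neither the species of the inserts, nor a promoter, nor whether the 3 libraries came from separate cultures. The p-values therefore measure library-to-library spread only, and that spread may be technical.

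Heme oxygenases open the heme ring and release iron, carbon monoxide and biliverdin, and biliverdin reductases turn biliverdin into bilirubin. Cells take up transferrin-bound iron through the transferrin receptor, move it out of endosomes through the metal transporter DMT1, store it in ferritin, and export it through ferroportin. The iron regulatory proteins sense iron and bind stem loops in the mRNAs of ferritin, the transferrin receptor and ferroportin, so that much of this control acts on translation and mRNA stability. NFE2L1 is a CNC-family leucine zipper factor that binds antioxidant response elements, and NFYA is the subunit of the NF-Y factor that contacts the CCAAT box. In the heart, iron feeds respiratory iron-sulfur proteins and the heme of myoglobin.

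Total counts ran from 5712123 to 7310774 per library, and 14151 genes passed the filter on low counts. Levels are given as CPM (counts scaled to a common library size) after TMM scaling. Differences are log2 fold changes with their standard errors from edgeR's quasi-likelihood test, and called genes are those whose p, adjusted by Benjamini and Hochberg's method over all genes tested, was below 0.05. Rat Nfya stood at 80.4 ± 2.19 CPM (SD, n = 3) in the libraries labelled GFP, 89.0 ± 0.683 in those labelled Nfya and 92.3 ± 2.20 in those labelled Nfe2l1. Rat Nfe2l1 stood at 240.7 ± 6.09, 222.7 ± 4.79 and 239.4 ± 6.14 CPM in the same order. The Nfya transcript was thus no higher under its own virus than under the Nfe2l1 virus (log2 difference -0.05 ± 0.04, adjusted p = 0.361 by edgeR). Nor was Nfe2l1 raised under its virus against GFP (adjusted p = 0.856 by edgeR), so every direction below rests on the labels.

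Among the 5 sets of cell type markers, the summed cardiomyocyte markers lay between 2840 and 3245 CPM in all 9 libraries, with Ryr2, Myh7 and Myh6 the highest. Of the 9 cardiomyocyte markers tested, 3 were called higher with Nfya and 1 was called lower with Nfe2l1. Beside these and the marker counts that follow, 52.2% of all genes tested were called with Nfya (24.3% higher, 27.9% lower). With Nfe2l1 the share was 58.6% (28.9% higher, 29.7% lower). The 8 fibroblast markers, highest on average in Col1a1, Col3a1 and Postn, summed to 1030 to 1099 CPM in the libraries labelled GFP, 1931 to 1952 with Nfya and 1628 to 1757 with Nfe2l1. All 8 were called higher with either virus against GFP. The 7 endothelial markers, highest on average in Eng, Kdr and Tek, summed to 287 to 301, 371 to 389 and 410 to 430 CPM. In both comparisons 5 were called higher and 1, Kdr, lower (means of 163 CPM with GFP, 77.0 with Nfya and 90.0 with Nfe2l1). The 11 macrophage markers, of which Csf1r, Cd68 and Lyz2 had the highest means over all 9 libraries, summed to 70.2 to 89.0, 92.0 to 104 and 93.4 to 108 CPM, with Cx3cr1 at 0 in every library and Cd163 at 0 in those labelled Nfe2l1. Of the 6 macrophage markers tested, 4 were called higher and 1, Csf1r, lower with Nfya (means of 30.6 CPM with GFP and 22.8 with Nfya). With Nfe2l1, 3 were called higher. The 8 erythroid markers in the table summed to 3.22 to 3.72, 3.83 to 5.17 and 7.84 to 13.0 CPM, Epb42, Slc4a1 and Klf1 having the highest means over all 9 libraries, with Hba-a1 and Rhag at 0 with GFP and Nfya and Gata1 at 0 with both factor viruses. Of the 2 erythroid markers tested, Epb42, a membrane protein of red cells, was called higher with Nfe2l1, and Slc4a1 was not called. Epb42 made up 6.52 of the mean sum of 9.83 CPM with Nfe2l1, beside 0.814 of 3.54 with GFP. Klf1, which was not tested, went the other way, from a mean of 0.755 CPM with GFP to 0.104 with Nfe2l1. The part of these markers in the differences of the heme and iron genes was not tested, and in these bulk cultures fewer cells of a type and less RNA per cell cannot be told apart.

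Promoter windows from RefSeq (build GRCr8) were read for the members because one virus carried a CCAAT-box subunit and the other an antioxidant response element factor. The table held 9 windows for 7 of the 10 members, and Hmox1, Fth1 and Ftl1 had none. Each window covers the 250 bases before a transcript start. CCAAT and TGACNNNGC, the core of the antioxidant response element, were searched on both strands. CCAAT occurred in 34.0% of 33469 windows of this length and TGACNNNGC in 10.1%. The 4 windows below belong to 3 members with a match, marked in capitals, and to Blvrb, the member that differed in opposite directions under the viruses and held neither motif.
Tfrc, chr11:81690319-81690568, minus strand: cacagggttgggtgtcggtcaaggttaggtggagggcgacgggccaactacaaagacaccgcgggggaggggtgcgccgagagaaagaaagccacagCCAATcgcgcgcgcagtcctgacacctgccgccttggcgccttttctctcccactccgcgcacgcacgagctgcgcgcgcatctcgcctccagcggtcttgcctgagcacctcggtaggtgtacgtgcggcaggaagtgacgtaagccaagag
Slc11a2, chr7:133417789-133418038, minus strand: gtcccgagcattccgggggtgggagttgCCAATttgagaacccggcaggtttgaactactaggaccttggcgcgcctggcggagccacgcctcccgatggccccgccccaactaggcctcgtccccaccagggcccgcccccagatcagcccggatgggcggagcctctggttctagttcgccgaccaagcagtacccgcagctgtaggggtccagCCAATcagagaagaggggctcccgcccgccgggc
Hmox2, chr10:11337613-11337862, minus strand: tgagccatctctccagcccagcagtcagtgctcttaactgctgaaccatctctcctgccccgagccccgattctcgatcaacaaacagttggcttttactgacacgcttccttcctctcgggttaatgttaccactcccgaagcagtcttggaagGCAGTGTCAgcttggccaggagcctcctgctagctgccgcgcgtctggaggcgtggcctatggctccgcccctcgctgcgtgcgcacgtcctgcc
Blvrb, chr1:91866008-91866257, plus strand: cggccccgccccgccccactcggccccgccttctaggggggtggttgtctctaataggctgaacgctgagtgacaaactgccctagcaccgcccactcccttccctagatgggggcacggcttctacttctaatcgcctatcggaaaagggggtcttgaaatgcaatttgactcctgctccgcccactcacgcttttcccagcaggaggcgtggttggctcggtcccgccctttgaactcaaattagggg

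In these windows CCAAT began 153 bases upstream of the Tfrc start and 222 and 34 bases upstream of the Slc11a2 start. A TGACNNNGC match lay on the opposite strand 95 bases upstream of 1 of the 2 Hmox2 starts, where it reads GCAGTGTCA on the printed strand. Neither motif was found in the other Hmox2 and Slc11a2 windows or in those of Ireb2, Aco1 and Slc40a1. These matches are descriptions of letters, and no binding was measured.

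Of the 10 members, 8 passed the filter on low counts. Against GFP, 4 of the 8 were called with Nfya, all 4 lower, where 52.2% of all genes tested were called and 27.9% were called lower. With Nfe2l1, 2 were called higher (Blvrb and Slc11a2) and 2 lower (Hmox2 and Tfrc), where 58.6% of all genes were called, 28.9% higher and 29.7% lower. Between the factor viruses, Tfrc was called higher with Nfya than with Nfe2l1 and Hmox1, Blvrb and Ireb2 lower, where 50.6% of all genes were called, 25.2% higher and 25.4% lower. The share of members called was thus near the share of all genes called in each comparison. The median log2 difference of the 8 members was -0.12 with Nfya, -0.04 with Nfe2l1 and -0.07 for Nfya against Nfe2l1, beside -0.02, -0.0066 and 0.0091 over all genes tested. Both comparisons against GFP use the same 3 control libraries.

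**Figure D1:**
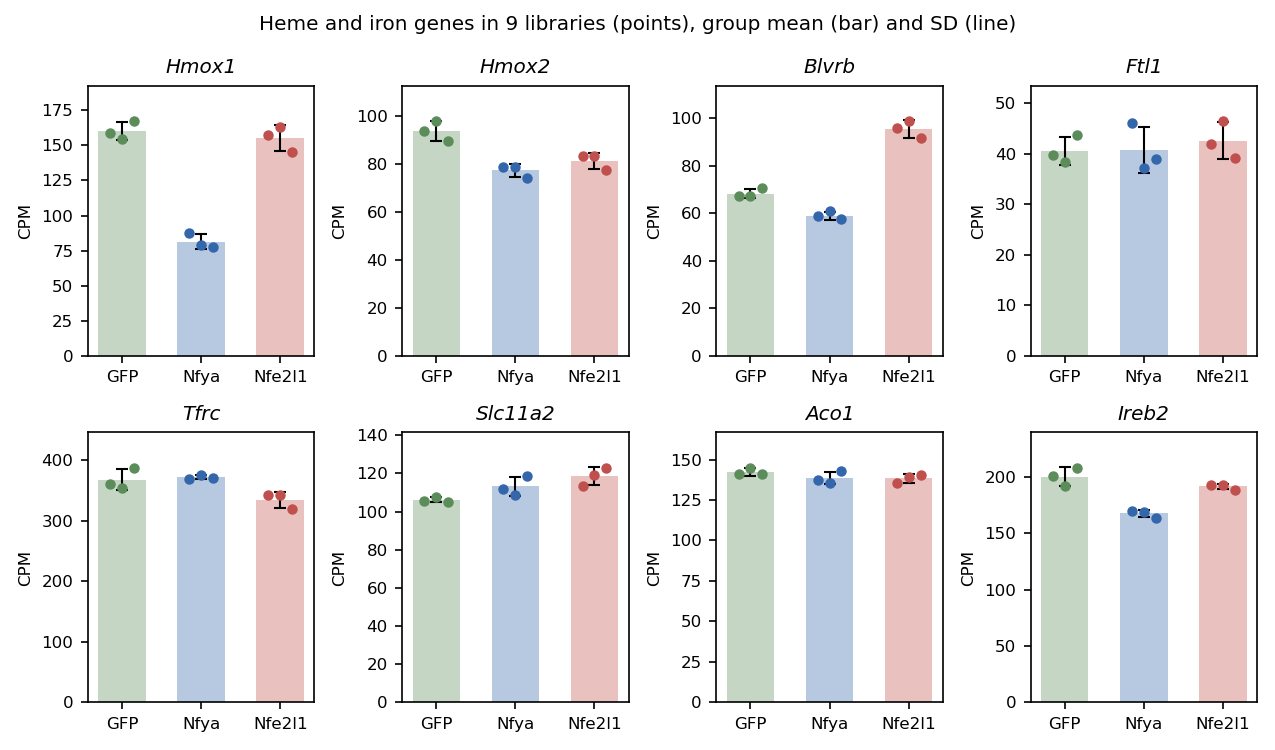
Level of each tested member in every library, in TMM-scaled CPM, by virus; points are libraries, bars the group mean and lines the SD (n = 3). Hmox1 lies between 77.4 and 87.2 in the libraries labelled Nfya and above 145 in the other 6, and Blvrb is highest with Nfe2l1.

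Heme breakdown held the largest differences among the members. Hmox1, the inducible heme oxygenase, measured 159, 154 and 167 CPM in the 3 libraries labelled GFP, 87.2, 79.2 and 77.4 in those labelled Nfya, and 158, 163 and 145 in those labelled Nfe2l1. The 3 Nfya libraries lay apart from and below the other 6, while the GFP and Nfe2l1 libraries overlapped. With Nfya, Hmox1 fell 1.97-fold against GFP (log2 difference -0.98 ± 0.05, adjusted p = 3.56e-10 by edgeR). It was lower in the Nfya libraries than in the Nfe2l1 libraries by a similar amount (-0.93 ± 0.05, adjusted p = 6.89e-10 by edgeR). Against GFP, the log2 difference with Nfe2l1 was -0.05 ± 0.05 (adjusted p = 0.408 by edgeR), and it was 0.02 without Nfe2l1 replicate 3.

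Hmox2, the constitutive heme oxygenase, measured 93.8, 98.0 and 89.7 CPM with GFP, 78.9, 79.0 and 74.4 with Nfya, and 83.6, 83.2 and 77.6 with Nfe2l1. All 6 libraries of the factor viruses lay below the 3 GFP libraries, and the factor viruses overlapped each other. Hmox2 fell with Nfya (log2 difference -0.28 ± 0.04, adjusted p = 7e-05 by edgeR) and with Nfe2l1 (-0.21 ± 0.04, adjusted p = 0.000703 by edgeR). The factor viruses did not differ at the threshold (-0.07 ± 0.05, adjusted p = 0.253 by edgeR).

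Blvrb, biliverdin reductase B, which also acts as a flavin reductase, measured 67.1, 67.2 and 70.6 CPM with GFP, 58.7, 60.8 and 57.4 with Nfya, and 95.9, 98.8 and 91.5 with Nfe2l1. The 3 groups did not overlap, in the order Nfya, GFP, Nfe2l1. Blvrb fell with Nfya (log2 difference -0.21 ± 0.05, adjusted p = 0.0013 by edgeR) and rose 1.40-fold with Nfe2l1 (0.48 ± 0.04, adjusted p = 7.21e-08 by edgeR). The direct comparison of the factor viruses gave -0.69 ± 0.04 (adjusted p = 2.04e-09 by edgeR).

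**Figure D2:**
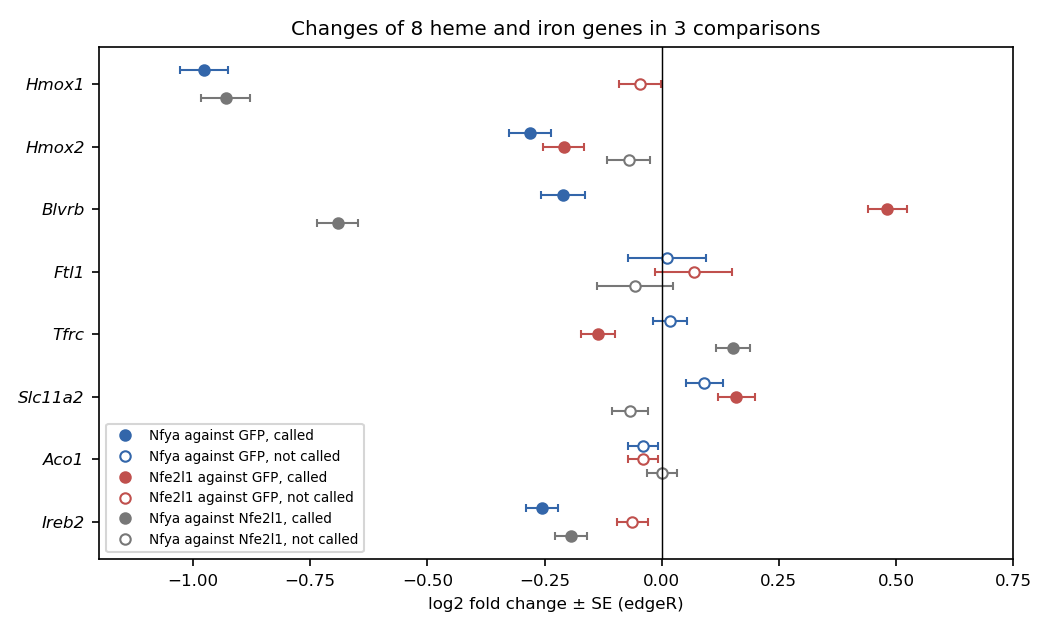
Log2 fold change of the 8 tested members in the 3 comparisons, with bars of 1 standard error; filled points passed an adjusted p below 0.05. Hmox1 lies near -1 in both comparisons that involve Nfya and near 0 for Nfe2l1 against GFP.

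Iron storage could be read for only 1 of the 2 ferritin chains. Fth1, the ferritin heavy chain with ferroxidase activity, was listed at 0 in 9 of 9 libraries. Hprt1, a gene that every cell uses, was also listed at 0 in 4 libraries, with 6 counts in all, so that a listed 0 in this table is no measure of absence. Ftl1, the ferritin light chain, measured 39.7, 38.3 and 43.7 CPM with GFP, 46.0, 37.2 and 38.9 with Nfya, and 42.0, 46.4 and 39.1 with Nfe2l1. The groups overlapped throughout, and the log2 differences were 0.01 ± 0.08 with Nfya (adjusted p = 0.927 by edgeR) and 0.07 ± 0.08 with Nfe2l1 (adjusted p = 0.498 by edgeR). Without 1 library in turn, the Nfya difference ranged from -0.08 (without Nfya replicate 1) to 0.07. A further gene carries Ftl1 as a synonym in RefSeq, and reads from near-identical ferritin copies could be split in the authors' counting, so the Ftl1 value is uncertain.

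The uptake genes among the members, Tfrc and Slc11a2, moved little. Tfrc, the transferrin receptor, measured 361, 354 and 387 CPM with GFP, 369, 375 and 369.9 with Nfya, and 341, 342 and 319 with Nfe2l1. The Nfe2l1 libraries lay below the other 6, while Nfya and GFP overlapped. Tfrc fell with Nfe2l1 against GFP (log2 difference -0.14 ± 0.04, adjusted p = 0.00439 by edgeR), but not once Nfe2l1 replicate 3 was left out (-0.09, adjusted p = 0.0783). With Nfya the log2 difference against GFP was 0.02 ± 0.04 (adjusted p = 0.722 by edgeR). Tfrc was higher with Nfya than with Nfe2l1 (0.15 ± 0.04, adjusted p = 0.00216 by edgeR).

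Slc11a2, the proton-coupled iron transporter DMT1, measured 106, 108 and 105 CPM with GFP, 112, 109 and 119 with Nfya, and 114, 119 and 123 with Nfe2l1. Every library of the factor viruses lay above the 3 GFP libraries. The gene rose with Nfe2l1 (log2 difference 0.16 ± 0.04, adjusted p = 0.00272 by edgeR). With Nfya the difference of 0.09 ± 0.04 missed the threshold (adjusted p = 0.0719 by edgeR), and across the 21 alternative settings its adjusted p ranged from 0.0116 to 0.382. It passed in 10 of them. In the authors' deposited table, the value for Nfya was 0.13 with an FDR of 0.0127. Slc40a1, the iron exporter ferroportin, was listed at 0 in 8 libraries and had 1 count in Nfe2l1 replicate 3, which is under the 3 counts that a count of 0 allows (0.409 to 0.531 CPM per library). No fold was computed for Fth1 or Slc40a1, and neither gene is among the 14986 genes of the authors' RPKM table.

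The 2 iron regulatory proteins differed from each other. Ireb2, which is degraded when iron is plentiful, measured 201, 192 and 208 CPM with GFP, 169.7, 169 and 164 with Nfya, and 193, 193 and 189 with Nfe2l1. The Nfya libraries lay below the other 6, while GFP and Nfe2l1 overlapped. Ireb2 fell with Nfya against GFP (log2 difference -0.26 ± 0.03, adjusted p = 9.42e-06 by edgeR) and was lower with Nfya than with Nfe2l1 (-0.19 ± 0.03, adjusted p = 0.000155 by edgeR). The Nfe2l1 difference against GFP was -0.06 ± 0.03 (adjusted p = 0.116 by edgeR). Aco1, the cytosolic aconitase that binds RNA when it lacks its iron-sulfur cluster, measured 141, 145 and 141 CPM with GFP, 137, 136 and 143 with Nfya, and 135, 139 and 140.4 with Nfe2l1. Its 3 Nfe2l1 libraries lay just below the GFP libraries, but neither virus moved it past the threshold (-0.04 ± 0.03 in both comparisons, adjusted p = 0.413 with Nfya and 0.383 with Nfe2l1 by edgeR).

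By the ranges of their libraries alone, 5 of the 8 members had no overlap between Nfya and GFP libraries, where 61.6% of all genes had none. The same number, 5 of 8, had none between Nfe2l1 and GFP, where 64.0% of all genes had none. Between the factor viruses 4 of 8 had none, beside 60.0% of all genes.

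Levels of different members were compared per length, as the authors' RPKM. Neither these RPKM nor the ratios drawn from them below were corrected for a ceiling on counts per base. Such a ceiling would lower densely covered genes more than sparse ones, and whether it shaped these orders was not tested. In the GFP libraries Hmox1 was the highest at 101.9 ± 3.67 RPKM (SD, n = 3), followed by Tfrc at 76.4 ± 3.24 and Ftl1 at 73.2 ± 4.72, whose libraries overlapped. Blvrb at 59.9 ± 1.46 and Ireb2 at 59.0 ± 2.13 RPKM also overlapped. Hmox2 at 48.0 ± 2.33, Aco1 at 40.9 ± 0.771 and Slc11a2 at 20.1 ± 0.317 RPKM followed without overlap.

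With Nfya the order of levels changed at the top. Tfrc at 78.1 ± 0.630 and Ftl1 at 74.3 ± 8.49 RPKM overlapped and came first. Hmox1 at 52.3 ± 3.37 RPKM shared its place with Blvrb at 52.3 ± 1.49. Ireb2 at 49.9 ± 0.952 RPKM came next, and its libraries overlapped those of Hmox1 but not those of Blvrb. Aco1 at 40.3 ± 1.09 and Hmox2 at 40.1 ± 1.35 overlapped, and Slc11a2 was lowest at 21.7 ± 0.977. In the Nfe2l1 libraries Hmox1 was again first at 98.5 ± 4.87 RPKM. Blvrb at 83.4 ± 2.39 and Ftl1 at 76.5 ± 5.90 RPKM overlapped in the next place, ahead of Tfrc at 69.4 ± 2.11 and Ireb2 at 56.3 ± 0.247. Hmox2 at 41.6 ± 1.38 and Aco1 at 39.7 ± 0.975 RPKM overlapped, and Slc11a2 at 22.4 ± 1.05 was the lowest here too.

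**Figure D3:**
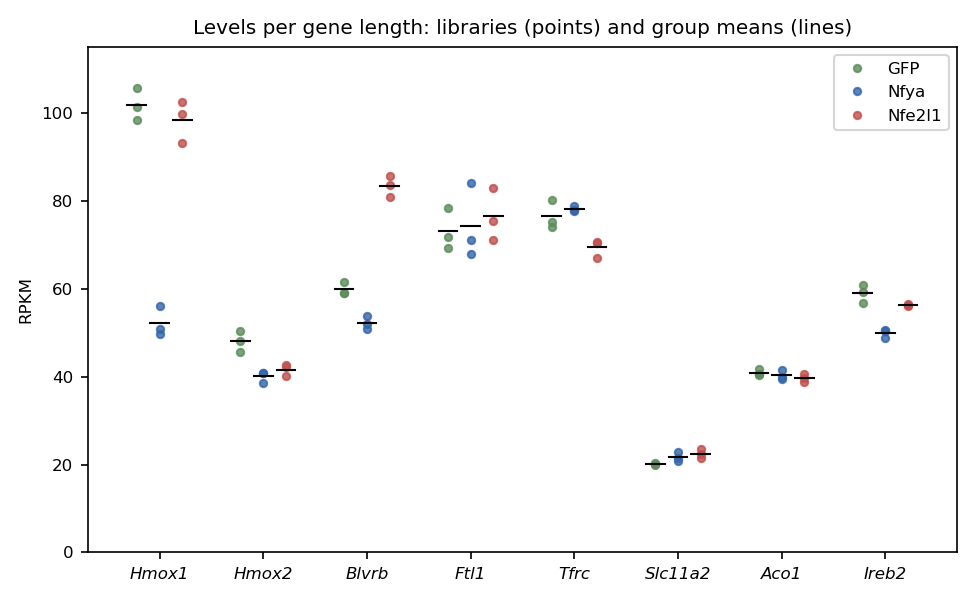
RPKM, the authors' length-scaled level, of the 8 members (vertical axis) in every library by virus; points are libraries and lines the group mean. Slc11a2 is the lowest member in all 3 groups, and Hmox1 is the highest with GFP and with Nfe2l1 but not with Nfya.

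Ratios within a library describe the balance between members that share a role or act in linked steps, and no test was made of them. The RPKM ratio of the inducible to the constitutive heme oxygenase (Hmox1 over Hmox2) was 2.13 ± 0.180 with GFP, 1.30 ± 0.0647 with Nfya and 2.37 ± 0.0573 with Nfe2l1. It was between 1.24 and 1.37 in the 3 Nfya libraries and at least 1.96 in the other 6. Hmox1 over Blvrb, both grouped here under heme breakdown, was 1.70 ± 0.0306, 1.00 ± 0.0692 and 1.18 ± 0.0257 in the same order. Ireb2 over Aco1 was 1.44 ± 0.0781, 1.24 ± 0.0556 and 1.42 ± 0.0410. Tfrc over Ftl1, uptake over storage, was 1.05 ± 0.0232, 1.06 ± 0.122 and 0.910 ± 0.0511. Its Nfya libraries (0.926 to 1.16) overlapped both the GFP libraries (1.02 to 1.07) and the Nfe2l1 libraries (0.851 to 0.941). This ratio rests on the Ftl1 value, which is uncertain as stated above.

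The 8 tested members differed in how densely counts covered them. Hmox1 had 0.55 counts per base of its length averaged over the libraries, more than 96.6% of genes in the RPKM table, and Slc11a2 had the least at 0.14, more than 55.5%. Among genes with 0.2 to 0.5 counts per base, replicate libraries differed by 0.746 to 1.19 times the variance that counting alone gives, whereas genes under 0.05 counts per base gave 1.28 to 1.54. The sparse genes thus showed distinct libraries, while in part of the pairs the dense genes as a class spread less than counting noise. The class holds 6 of the members, which did not all share this low spread. By the SD of its CPM as a share of the mean, Ftl1 spread more than counting alone gives in every group (11.4% beside 6.10% with Nfya). Tfrc did so with GFP and Nfe2l1, and Hmox2 and Ireb2 with GFP only. Blvrb and Aco1 spread less than counting in every group. The cause of the low spread of the dense class was not tested.

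For each member, the 3 genes whose log2 CPM followed it most closely over the 9 libraries were listed among 11940 genes with a mean of 5 CPM or more. These Pearson correlations share the libraries and the 3 groups and are descriptions. Hmox1 was nearest to Creg1 (r = 0.993), Crebrf and Brix1 (0.992), and Blvrb to Uchl1 (0.996), Psmd3 (0.994), a proteasome subunit, and As3mt (0.994). For Ireb2 they were Yae1 (0.993), Ppp4r3b (0.988) and Rtn3 (0.985), and for Tfrc they were Igf2r, Myl9 and Aplp2 (0.985 for the last). Hmox2 was followed by Mark2 (0.976), Fam19a5 (0.962) and AABR07025385.1 (0.962), and Slc11a2 by Ndufaf3, Sema6a (0.944) and Arhgef28 (0.934). The flatter members had looser neighbours, with Zbtb7c (0.922), Fam173a (0.880) and Dact2 (0.876) for Aco1 and RGD1561590 (0.883), AC109958.1 (0.882) and LOC100911515 (0.871) for Ftl1.

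Around the 10 members, 7 lists of heme and iron genes held 79 genes, of which 72 were tested. With Nfya, 22 were called higher and 22 lower (61.1%, beside 52.2% of all genes), with a median log2 difference of -0.05. With Nfe2l1, 30 were called higher and 18 lower (66.7%, beside 58.6%), with a median of 0.07. For Nfya against Nfe2l1, 10 were higher and 31 lower (56.9%, beside 50.6%), with a median of -0.11. The lists were chosen with results of these data known, so their counts are descriptions.

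**Figure D4:**
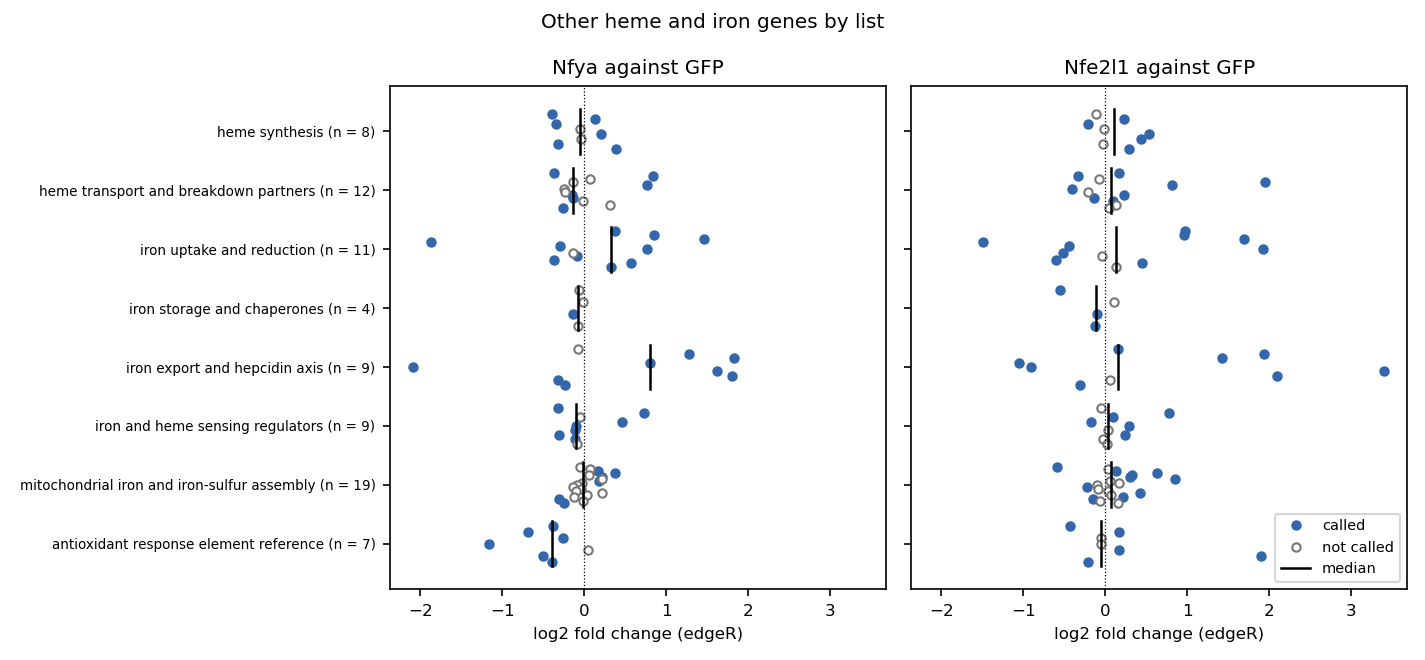
Log2 fold change of each tested gene in 7 heme and iron lists and in the antioxidant response element genes described last, for both viruses against GFP; filled points were called and black lines mark the list's median. The point farthest to the right is Heph with Nfe2l1, at 3.40.

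Heme synthesis genes went in both directions with Nfya (median log2 difference -0.05 over 8 tested) and had a median of 0.11 with Nfe2l1. Alas1, the rate-limiting enzyme outside red cells, was 135, 141 and 143 CPM with GFP, 149.6, 153 and 154 with Nfya and 159, 165 and 168 with Nfe2l1, given from lowest to highest. The 3 groups did not overlap, and Alas1 rose by 0.13 ± 0.03 with Nfya and 0.23 ± 0.03 with Nfe2l1 on the log2 scale. Uros, uroporphyrinogen III synthase, also rose with Nfya (0.39 ± 0.10), and its call with Nfe2l1 (0.29 ± 0.10) was lost without GFP replicate 2 (adjusted p = 0.0511 by edgeR) or Nfe2l1 replicate 2 (0.165). Ppox rose with Nfe2l1 (0.44 ± 0.07). Cpox fell with both (-0.35 ± 0.03 and -0.21 ± 0.03), and Alad (-0.40 ± 0.05) and Urod (-0.32 ± 0.04) fell with Nfya. Fech, which inserts the iron, differed by -0.05 ± 0.03 and -0.02 ± 0.03 and was not called. Directly compared, the median of the list was -0.21 for Nfya against Nfe2l1, and Ppox (-0.48 ± 0.07) and Urod (-0.30 ± 0.04) were among those lower with Nfya.

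Among 12 genes of heme transport and breakdown partners, the clearest difference was in Flvcr1, a heme exporter of the plasma membrane. Its libraries measured 12.9, 13.4 and 13.5 CPM with GFP, 11.9, 12.0 and 12.4 with Nfya and 48.7, 51.0 and 54.9 with Nfe2l1. Flvcr1 rose 3.87-fold with Nfe2l1 (log2 difference 1.95 ± 0.07, adjusted p = 3.47e-12 by edgeR), and with Nfya its difference was -0.14 ± 0.10 (adjusted p = 0.376 by edgeR). Its relative Flvcr2 rose with both viruses (0.77 ± 0.13 with Nfya and 0.82 ± 0.13 with Nfe2l1). Abcg2, a transporter that also exports porphyrins, rose with Nfya (0.84 ± 0.10). Abcb6, a porphyrin transporter, fell with Nfya (-0.36 ± 0.04) and rose with Nfe2l1 (0.16 ± 0.03), and Slc48a1, which moves heme out of lysosomes, fell with Nfya (-0.26 ± 0.04). Blvra, the other biliverdin reductase, differed by 0.06 ± 0.11 and -0.08 ± 0.12 and was not called. In all, 2 of the 12 were higher and 4 lower with Nfya, near the 52.2% of all genes called. With Nfe2l1, 5 were higher and 3 lower (66.7%, beside 58.6%). The remaining calls were small: Pgrmc1 and Pgrmc2 lower with Nfya (-0.14 ± 0.04 each), Pgrmc1 (0.22 ± 0.04) and Por (0.09 ± 0.04) higher with Nfe2l1, and Abcg2 (-0.34 ± 0.11), Hp (-0.41 ± 0.15) and Pgrmc2 (-0.14 ± 0.04) lower with Nfe2l1. The rise of Pgrmc1 held in every alternative. The fall of Abcg2 was lost without GFP replicate 1 or 2 or Nfe2l1 replicate 3 (adjusted p = 0.0719 to 0.161 by edgeR), and that of Hp without GFP replicate 1 or 2 or Nfe2l1 replicate 2 or 3 (0.0647 to 0.145). The call of Pgrmc2 with Nfe2l1 was lost without GFP replicate 3 or Nfe2l1 replicate 3 (adjusted p = 0.0555 to 0.183 by edgeR). Leaving out any 1 of 5 libraries ended the call of Por (up to 0.12), and any 1 of 4 libraries the calls of Pgrmc1 (up to 0.0891) and Pgrmc2 (up to 0.0727) with Nfya.

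Of 11 tested iron uptake genes, 6 were called higher and 4 lower with Nfya (90.9%, beside 52.2% of all genes; median 0.32). With Nfe2l1, 5 were called higher and 4 lower (81.8%, beside 58.6%; median 0.13). Slc39a8, a transporter of iron, zinc and manganese, was 8.58 to 10.3 CPM with GFP, 15.3 to 17.7 with Nfya and 34.8 to 37.4 with Nfe2l1. It rose 1.71-fold and 3.80-fold (log2 differences 0.77 ± 0.11 and 1.92 ± 0.09). Its relative Slc39a14 went the other way, from 159.6 to 162 CPM with GFP to 129.8 to 133 with Nfya and 117 to 119.6 with Nfe2l1 (-0.29 ± 0.03 and -0.44 ± 0.03). Lrp1, a large scavenger receptor that takes up heme bound to hemopexin, rose 2.75-fold with Nfya and 3.22-fold with Nfe2l1, while Lrp2 fell 3.66-fold and 2.80-fold. On the log2 scale these falls of Lrp2 were -1.87 ± 0.14 and -1.49 ± 0.13, and -0.99 and -0.85 by limma on log2(RPKM + 1). Cybrd1, a ferric reductase, rose by 0.38 ± 0.08 and 0.97 ± 0.07, and Steap3, the endosomal ferric reductase, fell by 0.37 and 0.60 on the log2 scale. Lrp1 belongs to fibroblasts and other cells of the heart as well, and the fibroblast markers above were higher in the same libraries. The part of those cells in the Lrp1 difference was not tested.

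The 4 tested genes for storage and iron chaperones had a median log2 difference of -0.07 with Nfya and -0.11 with Nfe2l1. Ncoa4, the receptor that sends ferritin to lysosomes, fell with Nfya from 228 to 244 CPM with GFP to 211 to 213 (-0.14 ± 0.03, adjusted p = 0.00298 by edgeR). With Nfe2l1, Pcbp2, a cytosolic iron chaperone (-0.13 ± 0.04), was called lower but not without GFP replicate 3 or Nfe2l1 replicate 3 (adjusted p = 0.0928 to 0.115 by edgeR). Ncoa4 was likewise called lower with Nfe2l1 (-0.10 ± 0.03) but not without GFP replicate 1 or 3 or Nfe2l1 replicate 1 or 3 (adjusted p = 0.0637 to 0.275 by edgeR).

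The export and hepcidin list held the largest difference of all the heme and iron genes. Heph, the membrane ferroxidase hephaestin that oxidises iron leaving through ferroportin, was 12.1, 12.7 and 13.1 CPM with GFP, 37.2, 38.1 and 41.0 with Nfya and 131, 134 and 136 with Nfe2l1. The 3 groups stood far apart. Heph rose 10.6-fold with Nfe2l1 (log2 difference 3.40 ± 0.05, adjusted p = 1.08e-15 by edgeR), where it had the smallest p of all 14151 genes, and 3.07-fold with Nfya (1.62 ± 0.07, adjusted p = 5.24e-11 by edgeR). Cp, ceruloplasmin, the soluble ferroxidase, rose with both viruses and more with Nfya, from 7.08 to 11.2 CPM with GFP to 29.7 to 33.7 with Nfya and 22.1 to 25.9 with Nfe2l1. Its direct difference was 0.41 ± 0.10 (adjusted p = 0.00244 by edgeR).

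The hepcidin regulators moved as well, several from low levels. Bmp6, the ligand that drives hepcidin in liver, rose from 10.8 to 11.6 CPM with GFP to 25.1 to 29.1 with Nfya and 41.5 to 44.8 with Nfe2l1 (log2 differences 1.28 ± 0.09 and 1.94 ± 0.08). Hfe rose with both viruses (1.80 ± 0.27 and 2.09 ± 0.26) from 24 counts in all 3 GFP libraries to 88 and 110. By limma on log2(RPKM + 1) the differences of Hfe were 0.90 and 1.09. Hamp, hepcidin itself, had 46 counts in the GFP libraries, 11 in the Nfya libraries and 26 in the Nfe2l1 libraries. It fell with Nfya (-2.09 ± 0.35, adjusted p = 0.000116 by edgeR), and its call with Nfe2l1 (-0.90 ± 0.29) was lost without GFP replicate 2 (adjusted p = 0.0684 by edgeR) or Nfe2l1 replicate 1 (0.0677). Hjv, hemojuvelin, the BMP co-receptor, fell with Nfya (-0.32 ± 0.03), and Neo1, neogenin, which binds hemojuvelin, fell with both (-0.24 ± 0.03 and -0.31 ± 0.03). Erfe, erythroferrone, had 51, 93 and 26 counts with GFP, Nfya and Nfe2l1 and differed between the factor viruses (1.85 ± 0.30, and 2.45 without Nfe2l1 replicate 3). Its calls against GFP (0.80 ± 0.27 and -1.05 ± 0.34) were lost without Nfya replicate 3 (adjusted p = 0.0997 by edgeR) and without Nfe2l1 replicate 1 (0.0596) or 2 (0.0775). Bmp2 was called higher with Nfe2l1 (0.15 ± 0.05) but not without GFP replicate 3 or Nfe2l1 replicate 2 (adjusted p = 0.0531 to 0.0857 by edgeR). In all, 5 of 9 were called higher and 3 lower in each comparison against GFP (88.9%, beside 52.2% of all genes with Nfya and 58.6% with Nfe2l1).

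**Figure D5:**
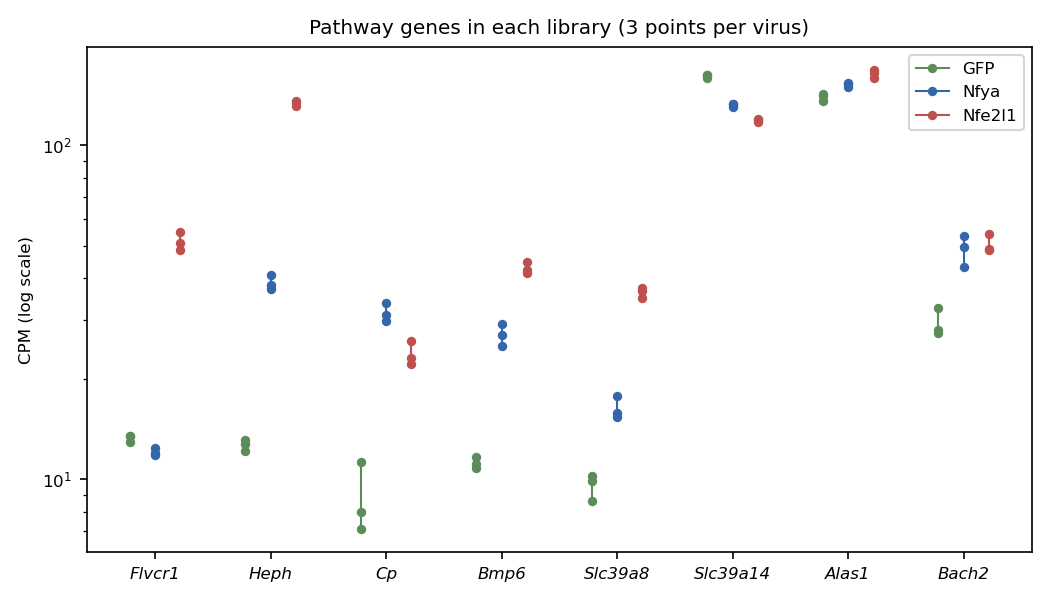
Level of 8 heme and iron genes outside the member set in every library, in CPM on a log axis, by virus; lines join the lowest and highest library of a group. Heph separates all 3 groups, and Flvcr1 lies at 48.7 or more in the libraries labelled Nfe2l1 and at 13.5 or less in the other 6.

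A list of 9 genes held regulators tied to iron and heme sensing and their partners, not all of which sense iron or heme themselves. Of the 9, 2 were called higher and 5 lower with Nfya (77.8%, beside 52.2% of all genes, median -0.11). Of the 5 lower calls, 3 did not hold in every alternative. With Nfe2l1, 4 were called higher and 1 lower (55.6%, beside 58.6%; median 0.03). Bach1, a heme-binding repressor of Hmox1, was 46.8, 48.3 and 54.3 CPM with GFP, 37.6, 40.8 and 41.0 with Nfya and 45.6, 47.9 and 49.7 with Nfe2l1. It fell with Nfya (-0.32 ± 0.06, adjusted p = 0.000524 by edgeR), and Hmox1 was lower in the same libraries. A link between these falls was not tested, and no protein was measured. Bach2 rose with both viruses (0.73 ± 0.09 and 0.78 ± 0.09). Keap1, which marks NRF2 for degradation, fell with Nfya (-0.30 ± 0.03) and rose with Nfe2l1 (0.25 ± 0.03). Epas1, the hypoxia factor HIF-2α, rose with Nfya (0.46 ± 0.04) and fell with Nfe2l1 (-0.17 ± 0.04). Fbxl5, the ubiquitin ligase subunit that binds iron and removes Ireb2, rose with Nfe2l1 (0.29 ± 0.03). With Nfya its difference of -0.11 ± 0.04 was called but lost in 14 of the 21 alternatives, including the omission of any 1 of 6 libraries (adjusted p = 0.0582 to 0.355 by edgeR). The other calls with Nfya were Nfe2l2, the gene of NRF2 (-0.11 ± 0.04), lost without 1 library in 7 cases (adjusted p up to 0.127 by edgeR), and Hif1a (-0.11 ± 0.03), lost without GFP replicate 1 or Nfe2l1 replicate 1 (up to 0.116). Cul1 with Nfe2l1 (0.09 ± 0.03) was lost without GFP replicate 1 or 2 or Nfe2l1 replicate 1 or 2 (up to 0.109).

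Of 19 tested genes of mitochondrial iron and iron-sulfur assembly, 4 were higher and 2 lower with Nfya (31.6%, beside 52.2% of all genes). With Nfe2l1, 7 were higher and 3 lower (52.6%, beside 58.6%). Bola3, which helps hand clusters to lipoate enzymes, rose with both viruses (0.38 ± 0.07 and 0.63 ± 0.06). Ciao1, of the cytosolic assembly machinery, rose with Nfe2l1 (0.33 ± 0.04). Abcb10, a mitochondrial transporter linked to heme synthesis, fell with Nfe2l1 from 50.6 to 54.8 CPM to 33.9 to 35.8 (-0.59 ± 0.05), and Iba57 fell with it (-0.23 ± 0.06). Glrx5 (0.18 ± 0.04) and Abcb8 (0.17 ± 0.04) rose and Nubp2 (-0.31 ± 0.05) fell with Nfya. Slc25a37, mitoferrin 1, was called lower with Nfya (-0.24 ± 0.09) but not in 12 of the 21 alternatives, including the omission of any 1 of 6 libraries (adjusted p = 0.0631 to 0.18 by edgeR). Fdx1 was called higher with Nfya (0.22 ± 0.08) but not without GFP replicate 2 or Nfya replicate 1 or 2 (adjusted p = 0.124 to 0.158 by edgeR). The call of Nubp2 with Nfe2l1 (-0.15 ± 0.05) was lost without any 1 of 5 libraries (adjusted p up to 0.371 by edgeR).

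Genes known as targets of antioxidant response elements were set beside Hmox1, Blvrb and the ferritins. Whether these members carry the element was not shown here. Hmox1, Fth1 and Ftl1 had no promoter window, and the core was not found in the Blvrb window. With Nfya, 6 of 7 tested were called lower (85.7%, beside 27.9% of all genes called lower; median -0.39), and Osgin1, an oxidative stress gene, fell furthest (-1.16 ± 0.05), from 78.2 to 83.5 CPM with GFP to 33.6 to 37.5. Gclm, the modifier subunit of glutathione synthesis, fell by 0.69 on the log2 scale in those libraries. With Nfe2l1, 3 were higher and 2 lower (71.4%, beside 58.6% of all genes called; median -0.05). The cystine transporter Slc7a11 (1.90 ± 0.06) and Gclm (0.16 ± 0.04) rose, Gclc (-0.43 ± 0.03) and Txnrd1 (-0.21 ± 0.04) fell, and the call of Prdx1 (0.17 ± 0.07, higher) was lost without any 1 of 5 libraries (adjusted p up to 0.159 by edgeR).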

How the data were processed

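The counts are whole-number reads per gene as the authors deposited them, made with featureCounts 1.6.0 per the submitters' processing notes, which also name FastQC 0.11.4, edgeR 3.20.5. The builds they list are rn6, GRCm38 and mm10. Which aligner, annotation and strand setting were used is not given in the sources used here. RPKM values were deposited by the authors for 14986 genes. The authors' deposited edgeR tables hold log2 fold changes, a likelihood ratio score and p-values for each virus against GFP, per the file headers.

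All 9 libraries (3 per virus; 5712123 to 7310774 counts) were fitted with edgeR 4.0.16 in R 4.3.3 (filterByExpr, TMM, quasi-likelihood F test, virus as the only term), and p-values were adjusted over 14151 genes. Standard errors were taken from the log2 fold change and the F statistic. Alternatives were DESeq2 1.42.0, limma 3.58.1 on log2(RPKM + 1) and log2(RPKM + 0.1), other scalings and filters, the 6 libraries of a pair alone, a threshold of 0.01, a correction for an assumed ceiling of 1.6 counts per base, a replicate block and each library left out. The fit was tested on simulated counts.

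The members and the gene lists were chosen with earlier results of these data known. All members were named, with up to 2 called genes per direction, list and virus by smallest p, and up to 3 most abundant markers per cell type. The other pathway genes were named after their values were seen, and some results of the rule are not reported here.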

Additional observations from a re-analysis of the deposited data

How the results depend on the processing

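Under the 21 alternatives the number of genes called ranged from 5836 to 7718 for Nfya against GFP, 6829 to 8799 for Nfe2l1 against GFP and 5543 to 7526 for Nfya against Nfe2l1. The number of members called was 4 to 5, 3 to 4 and 4 in the same order. No called member or pathway gene changed direction in these alternatives. For the pathway genes with Nfya against GFP, the split of 22 higher and 22 lower was 21 and 14 with a mean of 5 CPM or more, 23 and 16 with only the 6 libraries compared, 20 and 15 with DESeq2, and 23 and 15 without Nfe2l1 replicate 1. Of 149 calls of pathway genes, 113 held in every alternative and 36 were lost at least once. Small differences of uncalled members changed sign. For Aco1, Nfya against GFP gave 0.00057 with a mean of 5 CPM or more, and Nfya against Nfe2l1 gave -0.0057 without a low count filter and -7.3e-05 with the ceiling correction. With 1 library left out, Aco1 ranged from -0.062 to 0.0049 and from -0.022 to 0.034 in these comparisons, Ftl1 from -0.084 to 0.070 and from -0.15 to 0.0059, and Hmox1 with Nfe2l1 from -0.081 to 0.017. With the ceiling correction, Hmox1 with Nfya was -1.17. The deviations of libraries with the same number had correlations from -0.158 to 0.0585, beside -0.147 to 0.157 for libraries with different numbers. The labels state no pairing. With 3 libraries per group, these correlations cannot exclude a shared culture or preparation. With the replicate block 7220, 8137 and 6929 genes were called in the order above, and 4 members in each comparison. A floor of 3 counts covers counting error only.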
